A study of Homo sapiens with 9 samples.

Results

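In OVCAR4 cells, 53 protein-coding genes moved one way with one shRNA against MPZL3 and the opposite way with the other. They were chosen by measured values: in 12146 of the 19951 protein-coding rows (58735 rows in all), at least 1 group had a mean of 2 CPM (a gene's count scaled to its library's total) or more, and among these every shMPZL3 #1 library had to lie on one side of all scr control libraries and every shMPZL3 #2 library on the other, with both mean ratios to control at least 0.4 on the log2 scale after adding 0.5 CPM. Of the 53, 18 were lower with shMPZL3 #1 and higher with shMPZL3 #2, called #2-high genes here. The other 35 were higher with #1 and lower with #2, called #1-high genes. AKAP12, ADA and BBOX1, which mark the pattern by name, are among the 53. Because both comparisons chose these genes, their levels below are a description and carry no test.

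OVCAR4 is an established human cell line labelled ovarian serous adenocarcinoma. The cells were transduced with lentiviral scramble (scr) control shRNA, shMPZL3 #1 or shMPZL3 #2 and kept in puromycin for 3 days, with 3 biological replicates per condition and 9 poly-A RNA-seq libraries in all. All groups thus carried a hairpin vector and went through the same selection, and untransduced cells are not among them. In these bulk libraries, fewer cells of a kind and less RNA per cell cannot be told apart. Library totals ran from 15040102 to 27835841 counts, with 7.16% to 8.65% of counts from mitochondrially encoded genes. Of the ovarian and epithelial identity markers, PAX8, MUC16, EPCAM, KRT7, KRT8, KRT18 and CDH1 were expressed (KRT7 at 1908 CPM in scr control), while WT1 was at 0.236 CPM. The 9 leukocyte, endothelial and fibroblast markers reached at most 4.88 CPM in scr control.

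A short hairpin RNA is cut by Dicer into a small duplex, and its guide strand in an Argonaute protein pairs along its length with the target mRNA, which is then cleaved. A guide can also repress other mRNAs by pairing through its seed, the bases near its 5′ end, as a microRNA does. Hairpins against one gene share the intended target and differ in guide and seed, which is why knockdown studies use more than one.

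The target gene was lower with both shRNAs. MPZL3, an immunoglobulin-domain membrane protein related to myelin protein zero, had 26.1, 29.8 and 28.4 CPM in the scr control libraries, 5.70, 7.15 and 6.09 CPM with shMPZL3 #1 and 13.7, 18.5 and 12.97 CPM with shMPZL3 #2. The mean fell to 22.5% of control with #1 and lay at 53.5% with #2 (log2 fold changes -2.17 and -0.89, adjusted p = 3.73e-07 and 0.000562, edgeR quasi-likelihood test). The shRNAs also differed from each other at MPZL3 (log2 fold change 1.28 for #2 against #1, adjusted p = 5.72e-05), so the opposite genes were measured at unequal knockdown.

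The target sequences of the shRNAs are shown because these bases are what set the hairpins apart. MPZL3 has 4 transcripts in GENCODE 29 (GRCh38), on the minus strand. The #1 target was found in all 4, and the #2 target in MPZL3-201 and MPZL3-204 only. The capitals mark the 7 bases that pair with bases 2 to 8 of a guide that is the exact complement of the target:
shMPZL3 #1 target, chr11:118229850-118229870, exon 6 of transcript MPZL3-201, 3′ UTR: gagtcacctaaagACAGGAAa
shMPZL3 #2 target, chr11:118237155-118237175, exon 3 of transcript MPZL3-201, coding sequence: gggatgcatctatAAGTATAa

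Matches to these heptamers were counted in the opposite genes. Each gene's longest annotated 3′ UTR was searched on the transcript strand. Among the 18 #2-high genes, which were lower with #1, 4 held the #1 heptamer ACAGGAA (22.2%, Wilson 95% interval 9.001% to 45.2%), against 20.04% of all 12118 expressed protein-coding genes with a 3′ UTR. Among the 35 #1-high genes, which were lower with #2, 5 held the #2 heptamer AAGTATA (14.3%, interval 6.26% to 29.4%), against 15.8% of all. The other pairings were 4 of 35 (11.4%) for the #1 heptamer in #1-high genes and 1 of 18 (5.56%) for the #2 heptamer in #2-high genes. In both pairings with the hairpin that gave the lower level, the share over all genes lay inside the interval. Guides cut 1 base to either side would shift the seed, so the neighbouring heptamers were counted too. TAAGTAT, for bases 3 to 9 of the #2 guide, was in 11 of the 35 #1-high genes (31.4%, interval 18.6% to 48.0%), against 13.8% of all genes, and AGTATAA, for bases 1 to 7, was in 4 (11.4%) against 14.2%. For the #1 guide in the 18 #2-high genes, GACAGGA was in 2 (11.1%) against 14.8% and CAGGAAA in 5 (27.8%) against 25.4%. CAGGAAA was also in 13 of the 35 #1-high genes (37.1%, interval 23.2% to 53.7%), which were higher with #1. The other reverse pairings were 4 of 35 (11.4%) for GACAGGA in #1-high genes, and 1 of 18 (5.56%) for TAAGTAT and 0 of 18 (interval up to 17.6%) for AGTATAA in #2-high genes. Of the 6 heptamers, each read in the genes lower with its hairpin, TAAGTAT was the 1 whose interval left out the share over all genes. No test was run, and the intervals make no allowance for reading 6 of them. A match is a run of letters and does not show pairing in the cell.

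Sites in 3 of these 4 #2-high genes and 3 of the 5 #1-high genes are shown with their surroundings. They are examples of places in the opposite genes that a seed could pair with, and sites of the neighbouring heptamers are not shown. Capitals mark the heptamer, and positions count from the first base of the 3′ UTR. For shMPZL3 #1 in #2-high genes they were:
MYB, 634 to 640: atgtgatcaaACAGGAAtctgatg
ADD2, 4537 to 4543: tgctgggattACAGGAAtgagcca
EPHB2, 3435 to 3441: tcactgaagcACAGGAAggaccca
EPHB2, 4890 to 4896: ttgtcacataACAGGAAagagagt

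For shMPZL3 #2 in #1-high genes they were:
SOX6, 4594 to 4600: tcacttctcaAAGTATAataatat
NANOS1, 2645 to 2651: ctcttatgaaAAGTATAtgtaaac
SALL1, 808 to 814: caatgctgctAAGTATAgcatctt

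FLI1, MT2A, C1QL4 and SERPINA5, which come first in their classes by the smaller of their absolute ratios, held neither heptamer in the 3′ UTR searched. Longer runs of either target were rare. The longest run of the #2 target in any transcript of an opposite gene was 11 bases, in SERPINA5, a length also found in 0.972% of expressed protein-coding genes, and the longest run of the #1 target was 10 bases, in FAT2, found in 7.74%. FAT2 was higher, not lower, with #1.

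Opposite orderings were fewer than shared ones. Of the 12146 expressed protein-coding genes, 0.708% (86) had all #1 libraries below and all #2 libraries above the control libraries, and 1.1% (134) had the reverse. In 27% (3275) both shRNAs lay on the same side of control, 1625 above and 1650 below. Asking for both ratios to reach 0.4 left 53 opposite genes and 1395 genes with a shared direction. These are counts of the same libraries that chose the opposite genes, and both comparisons share the control libraries. An opposite ordering needs every group apart with control in between, while a shared one needs only control apart from both shRNAs. The layout alone thus makes opposite orderings the fewer, and nothing is read from the difference. The 53 were less abundant than the rest, with a median of 14.2 CPM in scr control against 31.3 CPM over all expressed protein-coding genes, and more variable between replicates, with a median coefficient of variation of 15.1% against 10.1%.

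In the edgeR fit over all 16928 genes tested, every opposite gene passed the count filter. Of the 18 #2-high genes, 17 were called lower with #1 (adjusted p under 0.05), where 15.3% of all genes were, and 14 were called higher with #2, where 9.36% were. Of the 35 #1-high genes, 30 were called higher with #1 (16.8% of all genes) and 22 lower with #2 (5.8%). For #2 against #1 directly, all 18 were called higher (7.56% of all genes) and all 35 lower (7.56%). Calls in opposite directions with both shRNAs were made for 14 #2-high genes (0.165% of all genes) and 20 #1-high genes (0.171%). The rule used these contrasts, so the counts describe the choice and nothing is read from them. The calls with #2 depended on single libraries: 2567 genes were called in all, and 1398, 1579 and 1366 without scr control replicate 1, scr control replicate 2 and #2 replicate 3.

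**Figure D1:**
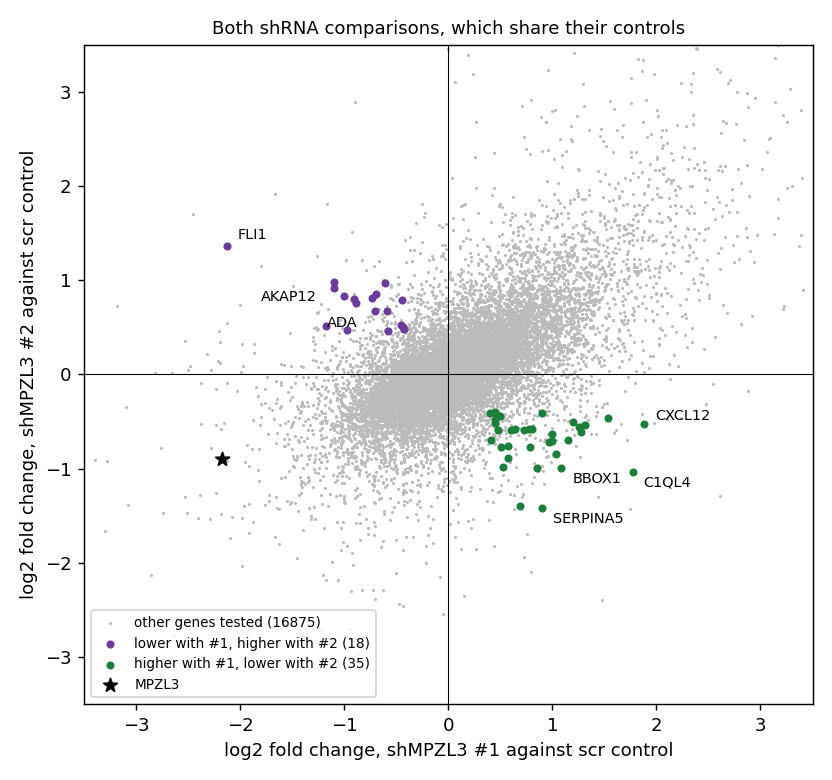
Log2 fold change with shMPZL3 #1 (horizontal) and with shMPZL3 #2 (vertical) against scr control for the 16928 genes tested, each point 1 gene, with 55 genes beyond the axes not drawn. The 18 #2-high genes (purple) lie at the upper left and the 35 #1-high genes (green) at the lower right, while MPZL3 (star) is lower with both at -2.17 and -0.89.

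When the 6 knockdown libraries were taken as 1 group against scr control, 0 of the 53 were called by edgeR, where 6.4% of all genes were called lower and 9.36% higher. No opposite gene had an unadjusted p under 0.05 in that comparison, and DESeq2 also called 0. The smallest unadjusted p was 0.086, for CXCL12. Genes chosen to lie on both sides of control cancel when the shRNAs are averaged, so these values follow from the choice and nothing is read from them. Without the filter on low counts, edgeR called 4 #1-high genes in the grouped comparison and 9 had an unadjusted p under 0.05. The median grouped log2 fold change was 0.18 for the #2-high and 0.20 for the #1-high genes, beside medians of -0.72 and 0.78 with #1 and 0.77 and -0.59 with #2. Over all genes tested the medians were 0.02 grouped, 0.01 with #1 and 0.00 with #2.

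**Figure D2:**
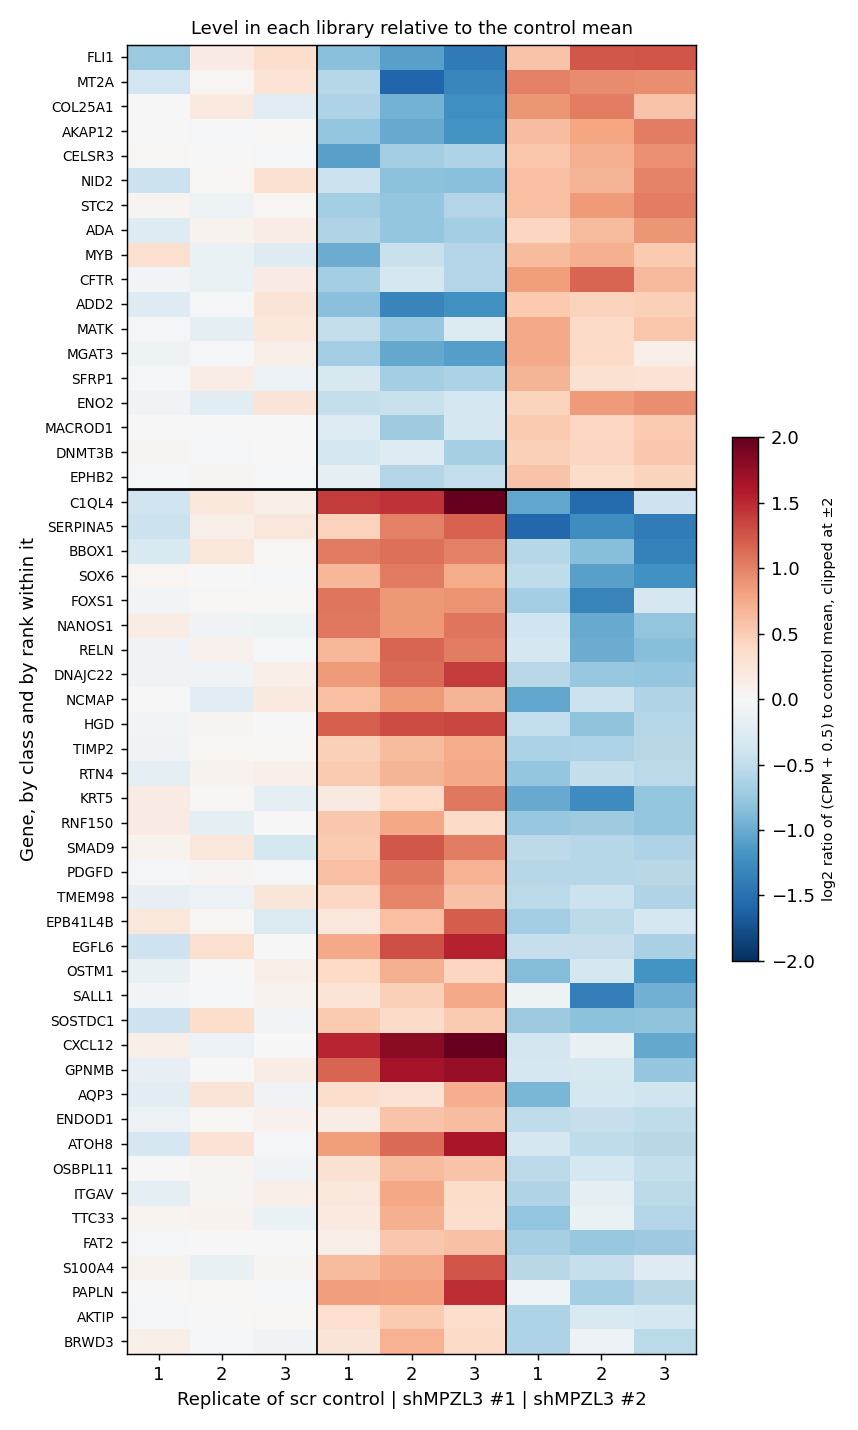
Level of each of the 53 genes in each library as the log2 ratio of CPM + 0.5 to the scr control mean, from blue (lower) to red (higher), with 18 #2-high genes above and 35 #1-high genes below the horizontal line. In every row the 3 shMPZL3 #1 columns and the 3 shMPZL3 #2 columns have opposite colours, which the choice of genes fixes.

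The #2-high genes included scaffolds and binding proteins with large changes. AKAP12 (ENSG00000131016, chr6:151239999-151358557), also called gravin, anchors protein kinase A and protein kinase C near the membrane. It had 109, 106 and 109 CPM in the scr control libraries, 62.3, 53.5 and 46.95 CPM with shMPZL3 #1 and 165, 187 and 219.8 CPM with shMPZL3 #2. The control libraries were close to each other and well apart from both knockdown groups, and the means with #1 and #2 were 50.3% and 177% of control (log2 fold changes -1.002 (standard error 0.13) with #1 and 0.84 (standard error 0.12) with #2). MT2A (ENSG00000125148, chr16:56608199-56609497), a small cysteine-rich protein that binds zinc and copper, had 166, 223 and 261 CPM in the scr control libraries, 146, 71.97 and 87.8 CPM with shMPZL3 #1 and 436, 420.1 and 412 CPM with shMPZL3 #2. Its #2 libraries were tightly grouped at about 4.15 times the #1 mean, while the highest #1 library came close to the lowest control. ADD2, the beta subunit of adducin in the spectrin-actin membrane skeleton, had means of 14.2 ± 2.61, 6.33 ± 1.22 and 20.1 ± 0.535 CPM in scr control, #1 and #2 (SD, n = 3 each), with the larger change with #1.

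Enzymes made up 5 of the #2-high and 2 of the #1-high genes. ADA (ENSG00000196839, chr20:44619522-44652233), adenosine deaminase, turns adenosine into inosine. It had 130.4, 163 and 172 CPM in the scr control libraries, 102, 90.5 and 96.9 CPM with shMPZL3 #1 and 208, 240.2 and 288 CPM with shMPZL3 #2. Its mean with #1 was 62.1% and with #2 158% of control, and the #2 libraries spread more widely than the #1 libraries (log2 fold changes -0.70 (standard error 0.13) with #1 and 0.67 (standard error 0.13) with #2). Of the other #2-high enzymes, MGAT3, which adds the bisecting N-acetylglucosamine to N-glycans, had log2 fold changes of -0.98 with #1 and 0.47 with #2, ENO2, the neuronal form of the glycolytic enzyme enolase, -0.44 with #1 and 0.79 with #2, and MACROD1, which removes ADP-ribose from proteins, -0.46 with #1 and 0.52 with #2. MATK, a kinase related to CSK, stood at 2.93 ± 0.492, 1.95 ± 0.401 and 4.62 ± 0.665 CPM and was called in neither comparison with control, although its groups did not overlap.

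Both #1-high enzymes act in amino acid or carnitine chemistry. BBOX1 (ENSG00000129151, chr11:27040725-27127809), gamma-butyrobetaine hydroxylase, carries out the last step of carnitine synthesis. It had 5.12, 7.58 and 6.58 CPM in the scr control libraries, 13.8, 14.4 and 13.4 CPM with shMPZL3 #1 and 4.14, 3.35 and 2.23 CPM with shMPZL3 #2. With #1 the libraries nearly coincided, far above the highest control, and with #2 they were all below the lowest control (log2 fold changes 1.09 (standard error 0.20) with #1 and -0.998 (standard error 0.22) with #2). HGD (ENSG00000113924, chr3:120628173-120682571), homogentisate dioxygenase of tyrosine breakdown, had 42.3, 45.8 and 44.3 CPM in the scr control libraries, 102, 109 and 113 CPM with shMPZL3 #1 and 31.1, 25.1 and 29.4 CPM with shMPZL3 #2. Its replicates were close in each group, and it was 2.45 times control with #1 and 64.7% of control with #2.

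Secreted and matrix proteins numbered 3 among the #2-high and 9 among the #1-high genes. STC2 (ENSG00000113739, chr5:173314713-173329503), stanniocalcin 2, a secreted glycoprotein made under endoplasmic reticulum stress, had 156, 140.4 and 154 CPM in the scr control libraries, 94.02, 87.3 and 100.2 CPM with shMPZL3 #1 and 228, 273 and 306 CPM with shMPZL3 #2. The groups were well apart, and the #2 libraries spread the most. NID2, a basement membrane nidogen, went from 11.3 ± 2.91 CPM to 6.83 ± 1.19 with #1 and 19.6 ± 2.96 with #2, and its highest #1 library (8.20 CPM) was just under its lowest control (8.23 CPM). SFRP1, a secreted Wnt antagonist, stood at 9.59 ± 0.969, 6.46 ± 0.978 and 13.2 ± 2.12 CPM in scr control, #1 and #2.

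Among the #1-high secreted proteins, C1QL4 and SERPINA5 came first by the smaller of their 2 absolute ratios. SERPINA5 (ENSG00000188488, chr14:94561442-94593120), the protein C inhibitor, a serine protease inhibitor, had 23.02, 33.8 and 36.6 CPM in the scr control libraries, 42.9, 63.1 and 71.1 CPM with shMPZL3 #1 and 10.2, 12.9 and 11.5 CPM with shMPZL3 #2. The #2 libraries were tightly grouped and well below every control, while the lowest #1 library was nearer to the highest control. C1QL4 (ENSG00000186897, chr12:49332411-49337188), a secreted C1q-like protein, had 3.11, 5.01 and 4.65 CPM in the scr control libraries, 12.1, 12.5 and 19.9 CPM with shMPZL3 #1 and 1.80, 1.13 and 3.09 CPM with shMPZL3 #2, with 1 control library only just above 1 #2 library. RELN, the matrix glycoprotein reelin, had means of 17.8 ± 0.987, 35.3 ± 6.08 and 10.7 ± 2.74 CPM. CXCL12, the chemokine ligand of CXCR4, had 5.45, 4.55 and 4.99 CPM in scr control, 15.3, 18.7 and 21.7 CPM with #1 and 3.75, 4.48 and 2.19 CPM with #2. It was 3.72 times control with #1 and 69.6% of control with #2, where edgeR did not call it (adjusted p = 0.139).

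TIMP2 (ENSG00000035862, chr17:78852977-78925387), an inhibitor of matrix metalloproteases, was among the most abundant opposite genes. It had 294, 317 and 317 CPM in the scr control libraries, 429, 481 and 516 CPM with shMPZL3 #1 and 199, 201 and 209.5 CPM with shMPZL3 #2. The means were 1.54 times and 0.657 times control, changes of nearly equal size on the log2 scale (0.60 (standard error 0.09) with #1 and -0.59 (standard error 0.09) with #2), with wide gaps between the groups. Of the other secreted #1-high genes, PDGFD, a platelet-derived growth factor, had log2 fold changes of 0.80 with #1 and -0.58 with #2, EGFL6, an EGF-repeat matrix protein, 1.25 with #1 and -0.56 with #2, SOSTDC1, an antagonist of BMP and Wnt signalling, 0.52 with #1 and -0.99 with #2, and PAPLN, papilin, 1.20 with #1 and -0.50 with #2.

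Cell surface and membrane proteins were the largest role group, with 4 #2-high and 10 #1-high genes. CFTR (ENSG00000001626, chr7:117465784-117715971), a chloride channel of epithelia, had 5.45, 5.15 and 6.38 CPM in the scr control libraries, 3.33, 4.32 and 3.60 CPM with shMPZL3 #1 and 10.5, 13.2 and 9.12 CPM with shMPZL3 #2. CELSR3, an atypical cadherin of planar cell polarity, had means of 4.94 ± 0.104, 2.66 ± 0.526 and 8.52 ± 1.15 CPM, with controls between 4.85 and 5.06 CPM. COL25A1, a transmembrane collagen, had 3.82 ± 0.633, 1.81 ± 0.487 and 7.22 ± 1.23 CPM, and EPHB2, a receptor tyrosine kinase for ephrin-B ligands, 31.9 ± 1.21, 23.9 ± 3.71 and 44.1 ± 3.27 CPM. The groups of EPHB2 were close, with 28.1 CPM in its highest #1 library and 30.99 CPM in its lowest control.

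On the #1-high side, ITGAV (ENSG00000138448, chr2:186590065-186680901), the alpha-v integrin subunit that binds vitronectin and fibronectin, was the most abundant opposite gene. It had 565, 668 and 699 CPM in the scr control libraries, 754, 1104 and 833 CPM with shMPZL3 #1 and 423, 559 and 443 CPM with shMPZL3 #2. Its highest #2 library (559 CPM) was just under its lowest control (565 CPM). GPNMB, a transmembrane glycoprotein of melanosomes and lysosomes, had 60.7, 68.4 and 75.5 CPM in scr control, 153, 217 and 229.9 CPM with #1 and 53.7, 54.4 and 39.7 CPM with #2, a change of 2.93 times with #1 and 72.2% of control with #2. FAT2, a giant atypical cadherin, had means of 471 ± 6.50, 636 ± 110.4 and 287 ± 8.88 CPM, RTN4, the reticulon also called Nogo, 154 ± 16.5, 243 ± 18.9 and 102 ± 10.5 CPM, and AQP3, a water and glycerol channel, 5.43 ± 1.07, 7.68 ± 1.39 and 3.59 ± 0.829 CPM. OSTM1, the partner of the lysosomal chloride transporter CLC-7, had log2 fold changes of 0.51 with #1 and -0.77 with #2. NCMAP, a myelin-associated membrane protein, stood at 3.54 ± 0.568, 6.12 ± 0.613 and 2.04 ± 0.533 CPM.

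DNAJC22 and C1QL4 are neighbours. They lie 9729 bases apart on chromosome 12 with no other annotated row between them, on opposite strands, and both were #1-high. DNAJC22 (ENSG00000178401, chr12:49346917-49357546), a membrane protein with a J domain, had 18.3, 18.3 and 21.2 CPM in the scr control libraries, 35.1, 42.9 and 51.6 CPM with shMPZL3 #1 and 13.02, 11.2 and 11.1 CPM with shMPZL3 #2. FOXS1 and DNMT3B, 916766 bases apart on chromosome 20 with 31 rows between them, were in different classes. Chromosome 11 held the most opposite genes, 6, but the share of all expressed genes on it was not counted, so nothing is read from this.

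**Figure D3:**
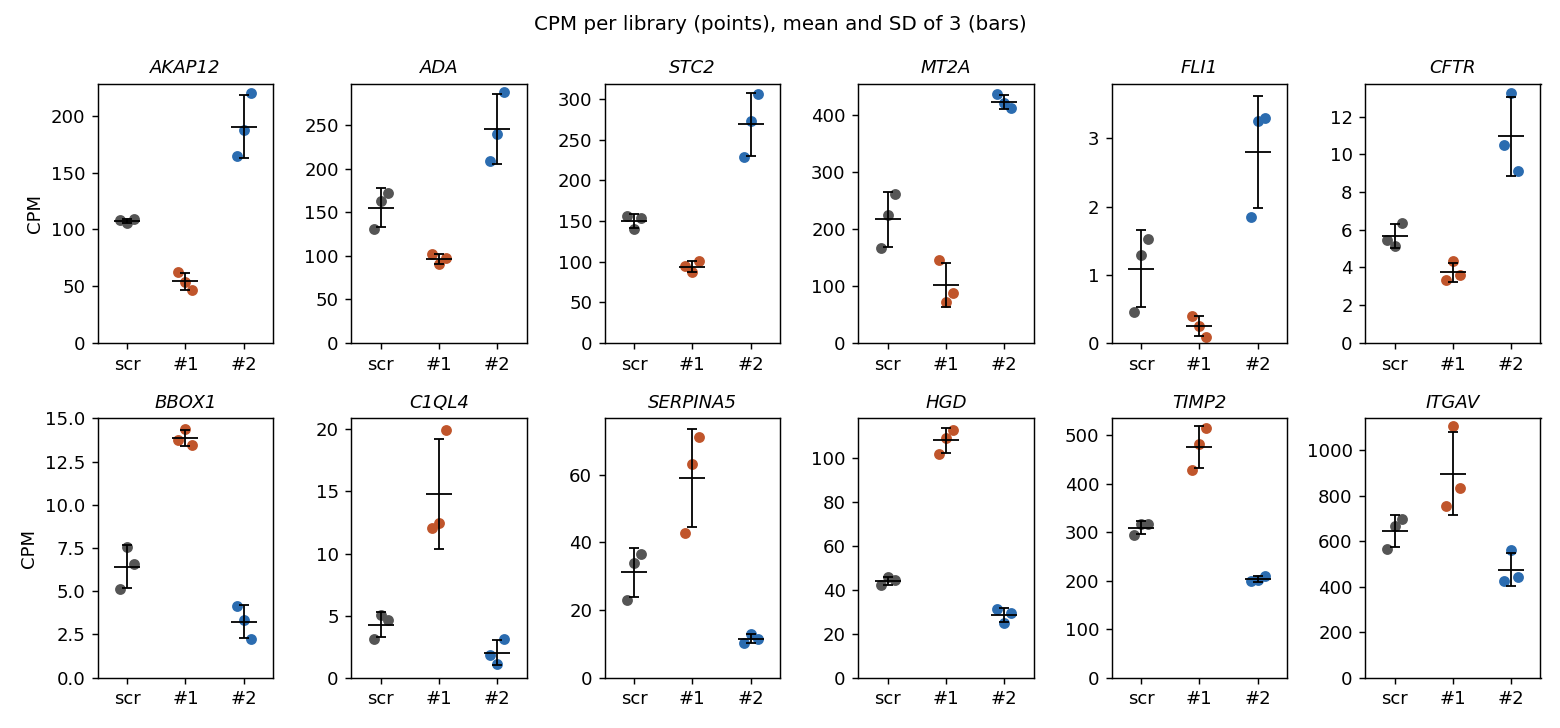
CPM in each library (points) with the mean and SD of 3 (bars) for 6 #2-high genes (upper row) and 6 #1-high genes (lower row), each panel with its own linear axis from 0. In each upper panel the #1 libraries are lowest and the #2 libraries highest, and in each lower panel the reverse, as for AKAP12 with means of 54.2 and 191 CPM with #1 and #2.

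Transcription and chromatin regulators included 3 #2-high and 6 #1-high genes, most of them at low levels. FLI1 (ENSG00000151702, chr11:128686535-128813267), an ETS factor of blood and endothelial cells, had the largest smaller ratio of the #2-high genes but few counts. Its libraries held 7, 28 and 23 counts in scr control, 9, 5 and 2 with #1 and 38, 66 and 92 with #2, or 0.454, 1.29 and 1.53 CPM in the scr control libraries, 0.395, 0.248 and 0.0936 CPM with shMPZL3 #1 and 1.85, 3.25 and 3.31 CPM with shMPZL3 #2. MYB, a factor of progenitor cells, had means of 2.07 ± 0.568, 1.13 ± 0.309 and 3.47 ± 0.251 CPM, and DNMT3B, a de novo DNA methyltransferase, 35.1 ± 1.26, 26.3 ± 3.80 and 49.2 ± 1.92 CPM. DNMT3B had the smaller change and the narrower spread.

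Of the #1-high regulators, SOX6, a SOXD factor of cartilage and muscle, had means of 6.66 ± 0.211, 12.2 ± 1.84 and 3.33 ± 1.06 CPM and FOXS1, a forkhead factor, 3.12 ± 0.115, 6.46 ± 0.520 and 1.69 ± 0.720 CPM. SMAD9, a receptor-activated SMAD of BMP signalling, had 5.55 ± 1.18, 11.3 ± 2.81 and 3.58 ± 0.129 CPM, and ATOH8, a basic helix-loop-helix factor, 3.64 ± 0.882, 9.24 ± 2.78 and 2.51 ± 0.237 CPM. SALL1, a zinc finger factor of kidney development, had 2.71 ± 0.137, 4.09 ± 0.776 and 1.46 ± 0.914 CPM and was called with neither shRNA, although its groups did not overlap.

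Binding and cytoskeletal proteins were also found among the #1-high genes, 6 in all. NANOS1 (ENSG00000188613, chr10:119029716-119033732), an RNA-binding repressor of translation, had 49.01, 41.8 and 41.1 CPM in the scr control libraries, 92.2, 80.4 and 92.8 CPM with shMPZL3 #1 and 33.1, 21.7 and 25.1 CPM with shMPZL3 #2. Its 3 groups were well apart. KRT5, a keratin of basal epithelia, stood at 1.98 ± 0.305, 3.25 ± 1.22 and 0.736 ± 0.196 CPM, and S100A4, a calcium-binding protein, at 57.2 ± 4.82, 108 ± 25.7 and 42.7 ± 4.80 CPM. The remaining #1-high genes RNF150, TMEM98, EPB41L4B, ENDOD1, OSBPL11, TTC33, AKTIP and BRWD3 had log2 fold changes between 0.40 and 0.78 with #1 and between -0.76 and -0.40 with #2.

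Values at the limits of the rule were close on both sides. BRWD3 (smaller absolute ratio 0.40) and AKTIP (0.41) were just inside the ratio limit. MYC, at -0.40 with #1 and 0.48 with #2, and ANKRD35 (0.39) fell just outside it. EPB41L4B and TTC33 were the genes whose groups were closest without overlapping, while STOX1 and DOK5 had the needed ratios with an overlap. FLI1 and KRT5 were the least abundant inside the CPM limit, with no gene just outside it. Of 98 expressed genes with opposite ratios of at least 0.4, 45 had overlapping groups.

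Libraries were prepared without keeping the strand, so reads from overlapping genes cannot be told apart by direction. In 9 of the 53, an overlapping annotated gene held more than 10% of the opposite gene's own counts over the 9 libraries. For NID2, MACROD1, SOX6, NANOS1 and AKTIP that gene was the more abundant, namely RTRAF, OTUB1, C11orf58, EIF3A and RBL2. None of those 5 was called in opposite directions, but some were called with one shRNA. RTRAF was called lower with #1 (-0.30, adjusted p = 0.0426), as NID2 was, and was -0.10 with #2. C11orf58 was called lower with #2 (-0.34, adjusted p = 0.0303), as SOX6 was. EIF3A was called lower with #1 (-0.32, adjusted p = 0.0139), where NANOS1 was higher, and was -0.23 with #2. OTUB1 and RBL2 were called with neither. CFTR overlaps CTTNBP2 (1321 counts against 1270), which was called lower with #1 (-0.73, adjusted p = 0.00917), as CFTR was, and was -0.33 with #2. TTC33 overlaps PTGER4 and ENO2 overlaps LRRC23, neither of them called. The part of overlapping reads in the opposite values was not tested. FLI1 overlaps the antisense row SENCR, whose log2 fold changes of -1.67 and 1.91 had the same signs as those of FLI1 and were not called (adjusted p = 0.176 and 0.0725).

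Replicates held out of the choice gave values that the choice had not used. The rule was applied to the 6 libraries of a pair of replicate numbers, and the direction was then read in the 3 libraries of the remaining number. With replicate 1 held out, 69 of 106 chosen genes (65.1%) were again on opposite sides of control in the same way. With replicate 2 held out the count was 60 of 74 (81.1%), and with replicate 3 held out 63 of 72 (87.5%). Over all expressed genes, 22.7% to 27.6% had opposite signs in the held-out libraries, in either direction. The labels give replicates a number and name no pairing. Each held-out comparison is 1 library against 1 library.

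Genes related to the opposite genes were not used by the rule and can be tested. For 40 of the 53, 115 paralogs or binding partners were listed without regard to their values, and 86 of them, related to 37 of the opposite genes, passed the count filter. None was itself an opposite gene. With #1, 11 rose and 19 fell, and with #2, 10 rose and 12 fell (edgeR, adjusted p under 0.05 over all genes). Those are 12.8% and 22.1% of the relatives with #1, beside 16.8% and 15.3% of all genes, and 11.6% and 14% with #2, beside 9.36% and 5.8%. The 12 became 6 without #2 replicate 3, 7 without scr control replicate 1 and 8 without scr control replicate 2, and the 10 became 6 and 5 without scr control replicates 1 and 2. Over all genes 0.337% were called in opposite directions, so a count of 0 among 86 relatives, by edgeR and by DESeq2, sets them apart in no way. Of the 86, 3 had opposite signs at an unadjusted p under 0.05 with both. Calls in the same direction with both shRNAs were made for 9, of which 3 rose and 6 fell, and 43 were called with neither. Over all 16928 genes tested, 1759 were called with both, all but 57 of them in the same direction. The share called with neither was not counted over all genes, and nothing is read from these counts. An opposite ordering of every library was found for 2 of the 86 (2.33%), beside 1.81% of expressed protein-coding genes, so nothing is read from it. These were TIMP1 and SMAD3, low with #1 and high with #2, the reverse of their relatives TIMP2 and SMAD9.

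The metallothioneins fell together with #1. All 5 other metallothioneins tested fell, MT1A (log2 fold change -1.58, standard error 0.22, adjusted p = 6.17e-05), MT1E (-1.61), MT1X (-1.30), MT1M (-1.47) and MT1F (-0.74). For MT1E, the most abundant of them, the libraries had 75.9, 70.6 and 67.95 CPM in scr control, 32.01, 21.2 and 17.1 CPM with #1 and 70.01, 80.8 and 46.7 CPM with #2. With #2 none was called, with log2 fold changes from -0.11 to 0.10, against 0.98 for MT2A. All 5 were higher with #2 than with #1 (log2 fold changes 0.67 to 1.68). The fall of MT1F with #1 did not pass once #1 replicate 2 (adjusted p = 0.0521), #1 replicate 3 (0.0659) or scr control replicate 1 (0.0576) was left out. Its difference between the shRNAs was lost without any of 4 shRNA libraries (#1 replicates 2 and 3, #2 replicates 1 and 2, adjusted p from 0.0521 to 0.166), and that of MT1M without #1 replicate 3 (0.0532) or #2 replicate 1 (0.0674). Metallothionein genes are near-identical in sequence, so how the counting split their reads is uncertain.

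Partners of ITGAV were mixed with #1, and none was called with #2. ITGB6, whose product pairs with alpha-v in epithelia, rose with #1 (log2 fold change 1.44, adjusted p = 3.52e-05) and was 0.45 with #2 (adjusted p = 0.112). ITGB5 also rose with #1 (0.56, adjusted p = 0.00118), whereas ITGB8 fell with #1 (-0.85, adjusted p = 4.2e-05) from means of 419.6 ± 14.1, 234 ± 32.7 and 430.3 ± 47.6 CPM. ITGB1 and ITGB3 were called with neither, at log2 fold changes of 0.01 to 0.15. ITGB5, ITGB6 and ITGB8 each differed between the shRNAs, by -0.46, -0.996 and 0.90 for #2 against #1.

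Single relatives called the same way with both shRNAs are given as examples. FAT3 fell by 1.63 with #1 and by 1.43 with #2 on the log2 scale (adjusted p = 3e-06 and 8.43e-06), beside 0.41 with #1 and -0.70 with #2 for FAT2. SOX5, the closest relative of SOX6, also fell with both (-0.69 with #1 and -1.24 with #2, adjusted p = 0.00772 and 0.00021). S100A6, next to S100A4 in the gene cluster, rose with both (1.17 with #1 and 0.67 with #2, adjusted p = 2.57e-05 and 0.00429). These calls held in each of the 9 fits that left out a library.

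TIMPs, SMADs and nidogens were mixed. TIMP3 rose with #1 (0.82, adjusted p = 5.2e-05), as TIMP2 was higher there, but was not called with #2 (-0.10). SMAD3, a receptor-activated SMAD of TGF-beta signalling, fell with #1 (-0.42, adjusted p = 0.00304) and was 0.22 with #2 (adjusted p = 0.138). SMAD5, which acts with SMAD9 in BMP signalling, fell with #2 (-0.91, adjusted p = 0.000108) and was -0.17 with #1. NID1, the relative of NID2, fell with #1 (-1.47, adjusted p = 0.00212) and was -0.09 with #2. LRP8, a reelin receptor, fell with #1 (-1.01, adjusted p = 0.000149), where reelin itself was high.

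**Figure D4:**
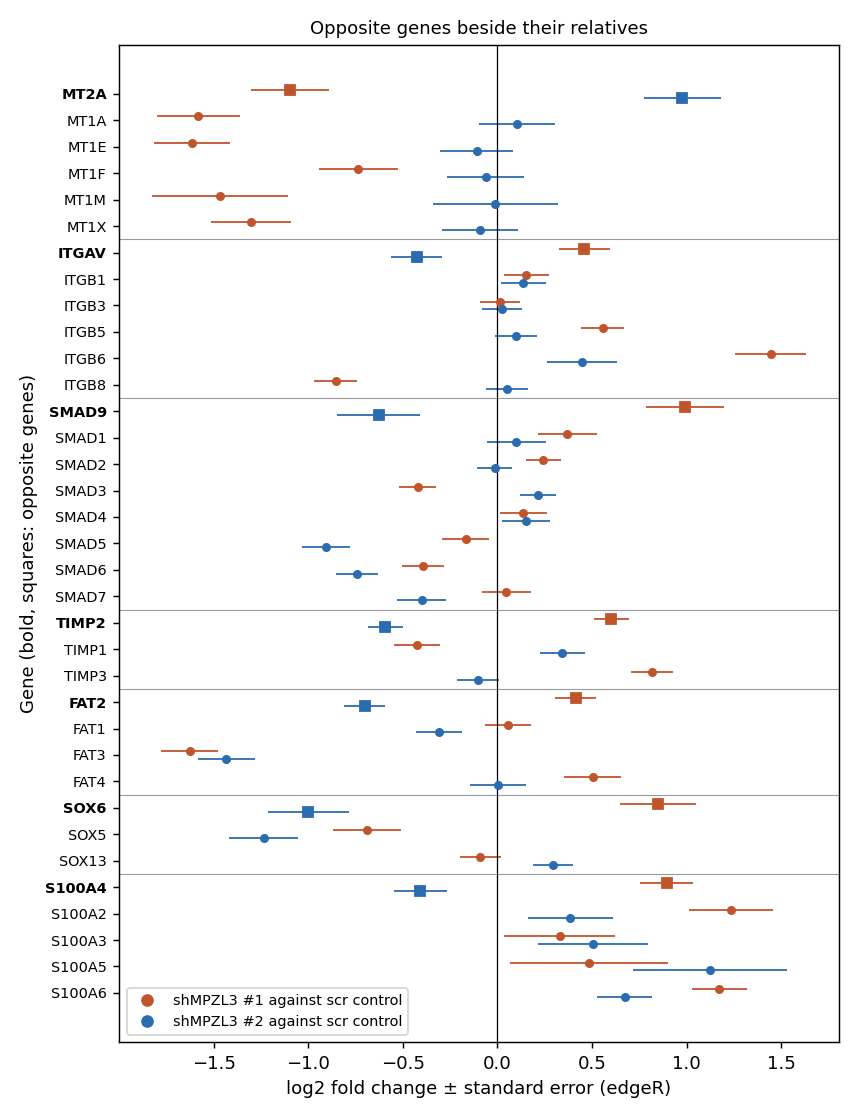
Log2 fold change against scr control, with its standard error, for 7 opposite genes (bold, squares) and the tested relatives of each (circles), with shMPZL3 #1 in orange and shMPZL3 #2 in blue. Squares lie on opposite sides of 0 by the choice of genes, whereas the MT1 genes lie left of 0 with #1 and near 0 with #2, and FAT3 and SOX5 left of 0 with both.

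Genes around the enzyme ADA were tested as a list. Over all genes tested, 16.8% rose and 15.3% fell with #1, and 9.36% rose and 5.8% fell with #2. Counts near these shares, in this list and those below, are not read as a result. Of 18 other adenosine and purine salvage genes tested, 7 rose and 6 fell with #1, and 4 rose with #2 while edgeR called 0 lower (0 at an unadjusted p under 0.05, and 0 by DESeq2). The 6 became 3 without #1 replicate 3 or scr control replicate 2 and 4 without scr control replicate 1 or #2 replicate 3, and the 4 became 2 without scr control replicate 1 or #2 replicate 3. Without #2 replicate 2, 1 was called lower with #2. The median log2 fold change was 0.00 with #1 and 0.02 with #2, beside 0.01 and 0.00 over all genes tested. SLC28A3, a concentrative nucleoside transporter, rose with both (2.10 with #1 and 2.46 with #2, adjusted p = 0.000115 and 4.75e-05) from 1.15 ± 0.345 CPM. NT5E, the ecto-5′-nucleotidase CD73 that makes extracellular adenosine, rose with both (0.65 with #1 and 0.61 with #2), where the #2 call did not pass once #2 replicate 3 (adjusted p = 0.0809) or scr control replicate 1 (0.0829) was left out. PNP, the next enzyme after adenosine deaminase, fell with #1 (-0.64, adjusted p = 0.00216) and was -0.14 with #2. ENTPD1 and DPP4, the surface protein that binds adenosine deaminase, were the other genes called higher with both, DPP4 from 0.0739 CPM in scr control. The #2 call of ENTPD1 was lost without any of 6 libraries, with adjusted p up to 0.197 (without scr control replicate 1).

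Genes of carnitine synthesis, transport and use, the pathway of BBOX1, were tested in the same way. The shares of all genes beside them were again 16.8% higher and 15.3% lower with #1, and 9.36% and 5.8% with #2. Of 12 others tested, 4 rose and 3 fell with #1, and 1 rose (2 without #2 replicate 2) and 1 fell (2 without #1 replicate 2 or #2 replicate 1) with #2. SLC22A5, the carnitine importer OCTN2, was called higher with both (0.75 with #1 and 0.41 with #2), although the #2 call was lost without any of 4 libraries (scr control replicates 1 and 3, #2 replicates 1 and 3, adjusted p from 0.0796 to 0.113). ALDH9A1, the enzyme before BBOX1, fell with both (-0.37 with #1 and -0.44 with #2), and its #1 call was lost without #1 replicate 3 (adjusted p = 0.0536). TMLHE, the first enzyme of carnitine synthesis, rose with #1 (0.65, adjusted p = 0.00193) and was 0.22 with #2.

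Of 19 A-kinase anchoring and protein kinase A genes other than AKAP12, 2 rose and 2 fell with #1, and 2 rose and 5 fell with #2. Among all genes, 16.8% rose and 15.3% fell with #1, and 9.36% rose and 5.8% fell with #2. The 5 (AKAP1, AKAP5, AKAP6, AKAP7 and PRKAR1A) became 1 without #2 replicate 3, 2 without scr control replicate 2 or #2 replicate 1, and 3 without scr control replicate 1 or 3. The other counts, each of 2 genes, ran from 1 (for the falls with #1, without scr control replicate 1 or 2, #1 replicate 3 or #2 replicate 3; for the rises with #1, without scr control replicate 2 or #1 replicate 1; for the rises with #2, without #2 replicate 1) to 4 (for the falls with #1, without #1 replicate 2). AKAP1, the mitochondrial anchor, fell with both (-0.62 with #1 and -0.39 with #2), where the #2 call did not pass once #2 replicate 3 (adjusted p = 0.0831) or scr control replicate 2 (0.0866) was left out. AKAP6, an anchor of the nuclear envelope in muscle, was -0.44 with #1 (adjusted p = 0.0498, lost without any of 6 libraries, up to 0.269 without scr control replicate 1) and fell with #2 (-1.17, adjusted p = 0.000159). PKIG, a protein kinase A inhibitor whose gene overlaps ADA, was called higher with both (0.60 with #1 and 0.77 with #2), where the #1 call did not pass once #1 replicate 1 (adjusted p = 0.0559) or scr control replicate 2 (0.0867) was left out. In these 3 lists edgeR and DESeq2 called 0 further genes in opposite directions (0 at an unadjusted p under 0.05 with both), beside 0.337% of all genes, which lists of this size cannot tell from 0.

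State programmes moved alongside the opposite genes. The shares of all genes to set beside the counts are 16.8% higher and 15.3% lower with #1, and 9.36% and 5.8% with #2. For #2 against #1 they are 7.56% higher and 7.56% lower. Of 20 interferon-stimulated genes, 18 rose with #1 and 18 with #2, with median log2 fold changes of 2.35 and 2.87. Of 23 proliferation genes, 20 fell with #1, 8 fell and 1 rose with #2, and 14 were higher with #2 than with #1. The counts with #2 and for #2 against #1 moved with single libraries. The 8 became 2 without #2 replicate 3, 4 without scr control replicate 2, 5 without scr control replicate 1, scr control replicate 3 or #2 replicate 1, and 12 without #1 replicate 3, and the rise, that of E2F1, did not pass without any of these libraries other than #1 replicate 3. The 14 became 3 without #2 replicate 1, 5 without #1 replicate 3 or #2 replicate 3 and 8 without #1 replicate 2. Of 16 ATF4 and unfolded protein response genes, 4 fell and 3 rose with #1, 1 fell and 7 rose with #2, and 8 were higher with #2 than with #1. ATF4 itself fell with #1 (-0.64, adjusted p = 0.000549) and was 0.21 with #2 (adjusted p = 0.246), while TRIB3 rose with #2 (1.29, adjusted p = 7.53e-06) and was -0.05 with #1. Of 19 EMT genes, 14 were called higher with #1 and 10 with #2, 9 of them with both. CDH1, the epithelial cadherin that is usually lost in EMT, is in this list and was among the 14 (0.41 with #1, adjusted p = 0.00256). For #2 against #1, 5 EMT genes were higher (3 without #2 replicate 3), such as FN1, fibronectin (1.47), and 5 were lower, such as VIM, vimentin (-0.86), and ACTA2, smooth muscle actin (-2.52). Of the 13 genes of the small RNA machinery, 2 rose (AGO4 and TNRC6C) and 3 fell (TNRC6A, XPO5 and DROSHA) with #1, and 0 rose (1 at an unadjusted p under 0.05, 0 by DESeq2) and 2 fell (TNRC6A and DICER1) with #2. The calls of TNRC6C, DROSHA and DICER1 did not pass without any of 4, 6 and 4 libraries (adjusted p up to 0.111, 0.155 and 0.101). TNRC6A, a partner of Argonaute, fell with both (-0.46 with #1 and -0.38 with #2), and AGO4 rose with #1 (0.85, adjusted p = 0.000167). The part of these programmes in the opposite values was not tested.

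Of the 6 leukocyte, endothelial and fibroblast markers that passed the count filter, 1 was called higher with #1 and 2 with #2, and 0 lower with either. Among all genes 16.8% rose with #1 and 9.36% with #2, and counts this small are not read as a result. CDH5, an endothelial cadherin, rose with #2 (1.05, adjusted p = 0.00282) from 4.04 ± 0.725 CPM. LUM, a proteoglycan of connective tissue, was called higher with both (0.79 with #1 and 1.45 with #2). Its #1 call was lost without any of 4 libraries (scr control replicates 2 and 3, #1 replicates 2 and 3, adjusted p from 0.0678 to 0.114). VWF, an endothelial marker at 4.88 ± 0.561 CPM in scr control, was called with neither (-0.12 with #1 and 0.06 with #2, adjusted p = 0.731 and 0.884), nor was PECAM1, at 0.332, 0.490 and 0.461 CPM in scr control, #1 and #2. FLI1, which endothelial cells also express, was higher with #2 in these libraries, all of them labelled as the OVCAR4 line.

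Beyond the 53, 23 genes were called in opposite directions by edgeR without meeting the rule, so 57 were called in all. Among them MYC fell with #1 (-0.42) and rose with #2 (0.50), and GARS and MARS, the aminoacyl-tRNA synthetases for glycine and methionine, fell with #1 and rose with #2, as did the transporters SLC7A1 and SLC2A1. WLS, the carrier of Wnt proteins, and TMCC3 went the other way. Of the 53 opposite genes, 34 had an opposite call and 19 had none. Without a scr control replicate the 57 became 31, 28 and 27 (replicates 1, 2 and 3), and without #2 replicate 3 they became 35.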

How the data were processed

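RNA was measured in 9 OVCAR4 libraries. The authors deposited raw counts per gene. The submitters' processing notes name HISAT2 2.0.5, featureCounts 1.5.0-p3 and hg38, and the study tested its counts with DESeq2. Groups came from the labels.

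CPM is the count scaled to the library total. All genes were fitted at once with edgeR 4.0.16 in R 4.3.3 (filterByExpr, TMM, quasi-likelihood test, Benjamini-Hochberg adjustment over 16928 genes), one coefficient per group. Standard errors given for edgeR are the absolute log2 fold change divided by the square root of the test's F statistic. DESeq2 1.42.0 was an alternative. The scripts were tested on simulated data. Seed matches used GENCODE 29 transcripts, whose identifiers matched 58724 of 58735 rows. Intervals cover counting error only.

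The opposite genes and the gene lists were chosen with earlier results of these data known. Roles and relatives were listed once the opposite genes were known. Named genes are MPZL3, AKAP12, ADA, BBOX1, the 12 of each class with the largest smaller ratio, genes at the limits, list genes called with both shRNAs and up to 4 examples per role. Other genes named here, among them relatives, single list genes and further opposite genes, were picked after their values were seen. Alternatives were other normalizations, filters, limits of the rule, a replicate block and leaving out each library.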

Additional observations from a re-analysis of the deposited data

Results flagged for a closer look

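The report used protein-coding genes, and 3 of 1286 expressed rows of other kinds met the same rule, beside 53 of 12146 protein-coding ones (0.436%). All 3 were higher with shMPZL3 #1 and lower with shMPZL3 #2. They are given only because they lie outside the genes described, and nothing is read from their number. TTC3P1, a processed pseudogene on the X chromosome, had 1.17, 1.88 and 1.26 CPM in scr control, 2.41, 3.67 and 2.43 CPM with #1 and 0.634, 0.837 and 0.862 CPM with #2. The smaller of its absolute log2 ratios was 0.60. For AC108062.1, a lincRNA, the smaller ratio was 0.44, with means of 2.71, 3.85 and 1.75 CPM in scr control, #1 and #2. For AC100810.1, an antisense row, it was 0.40, with means of 4.15, 6.30 and 3.02 CPM. Pseudogene and antisense reads cannot be told apart from those of the related or overlapping gene in these libraries without strand, and no test was run on these 3.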

How the results depend on the processing

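The set depended most on its ratio limit: 96 genes met the rule at 0.3 (38 #2-high and 58 #1-high) and 20 at 0.6 (9 and 11). CPM from TMM library sizes also gave 53 genes, 47 of them shared, split 23 and 30, and CPM without mitochondrial genes gave 53, 49 shared, split 15 and 38. Leaving out each library gave 52 to 72 genes, 19 to 29 #2-high genes (29 without scr control replicate 1) and 31 to 48 #1-high genes. Calls ranged from 3696 to 5816 with #1, 1366 to 3055 with #2, 1469 to 2953 for #2 against #1 and 625 to 3187 for the grouped comparison (625, 962 and 1238 without scr control replicates 1, 2 and 3, against 2667). For #2 against #1, 2559 calls became 1584, 1647 and 1469 without #1 replicate 3, #2 replicate 1 and #2 replicate 3. Opposite calls ranged from 27 to 73, those of the 53 genes from 23 to 33 and list calls from 140 to 169. The share of genes again opposite in held-out libraries was 65.1%, 81.1% and 87.5% for replicates 1, 2 and 3, against 76.2% together. DESeq2 made 72 opposite calls, 39 of them among the 53. Deviations of replicates with the same number had correlations of -0.0014 to 0.2184, and those between #1 and #2 were 0.1369, 0.2184 and 0.0966. The labels name no pairing and the main fit took none, so a shared replicate effect is not excluded. With the replicate block, 6355 genes were called with #1 and 3680 with #2, against 5423 and 2567 without it. It also gave 105 genes called in opposite directions, 41 of them among the 53. In the grouped comparison, 2 opposite genes had an unadjusted p under 0.05 in edgeR without #2 replicate 1 and 2 without #2 replicate 3. No direction reversed under the alternatives run. For the 53 genes the rule largely fixes this, and other genes were followed only in comparisons where they were called, so nothing is read from it. The causes were not tested. Depth limits the opposite genes of few counts: 25 of 53 had a control mean under 10 CPM.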
